A study of Mus musculus with 60 samples.

Results

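The comparison was of the liver of 5 Muta™Mouse males gavaged with benzo(ghi)perylene (BghiP) at 12.5 mg/kg-bw/day (the middle dose, D2) and of 5 Muta™Mouse males gavaged with the olive oil vehicle alone (D0). Samples were taken by the dose in their titles, and these 10 arrays were 10 of the 60 in the series. All mice were about 10 weeks old, all were dosed daily for 28 days, and all livers were removed 72 h after the final dose. Muta™Mouse carries a bacterial lacZ reporter that serves to score mutations, and the controls carried it too. Only 1 strain and 1 sex were used. Because RNA came from a random section of the frozen left lobe, each value is an average over all the cell types of a piece of tissue. Livers of 5 mice at 6.25 mg/kg-bw/day (D1) and 5 at 25.0 mg/kg-bw/day (D3) shared the slides and the estimate of the spread.

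BghiP is a polycyclic aromatic hydrocarbon, a flat molecule of fused aromatic rings. Compounds of this class can bind the aryl hydrocarbon receptor (AhR), a transcription factor that switches on Cyp1a1, Cyp1a2 and Cyp1b1, whose products oxidise the compounds, in some cases to forms that bind DNA. Cells with damaged DNA can respond through p53, of which Cdkn1a, a brake on the cell cycle, is a classical target. Hepatocytes also carry the receptors CAR and PXR, which sense foreign compounds and drive other cytochrome P450 genes.

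Each level below is log2 of Cy5 (liver) over Cy3 (a universal mouse reference RNA, the same on every array), so a level compares mice for 1 probe and not probes with each other. Differences are D2 minus D0 in log2 from limma, ± SE, with the slide as a block. Slide 1 held 1 D0 and 2 D2 mice, slide 2 held 2 D0 and 1 D2 mice, and slide 3 held 2 of each. Every dose kept to its own column of array positions, so position and dose cannot be told apart. Between 36.3 and 46.2% of probes were well above background in Cy5 in D0 and between 38.6 and 45.2% in D2, and the group means of 42.2 and 42.9% did not differ detectably (two-sided exact permutation test, p = 0.778). D0 mouse 2 stood somewhat apart, with a correlation of 0.978 with the mean of its own group against 0.987 or more for the other 9 mice, and the interferon, heat shock, endoplasmic reticulum stress and acute-phase counts or medians are also given without it.

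The arrays carried liver RNA. Alb, the plasma carrier protein made by hepatocytes, had a level of 7.34 ± 0.42 (SD, n = 5) in D0 and 7.26 ± 0.49 (SD, n = 5) in D2. All 12 hepatocyte markers were tested, none had an unadjusted p under 0.05, and their median difference was -0.0764, or between -0.138 (without D0 mouse 3) and 0.00442 (without D2 mouse 14) with 1 liver left out. The mean of the 12 ranged from -0.393 to 0.406 around the D0 mean in D0 and from -0.712 to 0.34 in D2, so single livers differed more than the groups did. The lowest of the 10 livers was that of D2 mouse 14.

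No probe passed the test between the middle dose and vehicle. Of 25907 probes tested with limma, 0 reached an adjusted p of 0.05 or less with a 1.5-fold difference (0%), and the lowest adjusted p was 0.697. An unadjusted p under 0.05 was found for 1771 probes (6.84%), 708 with a higher level at D2 (2.73%) and 1063 with a lower one (4.1%). The fitted difference was 1.5-fold or more for 70 probes upwards and 75 downwards, its median over all probes was -0.0105, and its median SE was 0.101. The 5 D2 livers lay wholly above the 5 D0 livers for 49 probes (0.189%) and wholly below for 64 (0.247%). Everything named below is therefore a measured level and an estimate with its error, and none of it passed the test across all probes.

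Of the genes by which AhR activity is usually read, those that could be tested did not differ detectably. The probe for Cyp1a1 was well above background on 0 of the 20 liver arrays and the probe for Cyp1b1 on 3, with 1 of these in D0 and 1 in D2, so neither was tested. Cyp1a2, the form that hepatocytes make without induction, had levels of 6.30, 6.00, 6.34, 6.61 and 5.85 in D0 mice 1 to 5 and of 6.47, 6.18, 6.57, 5.49 and 5.75 in D2 mice 11 to 15. The groups overlapped throughout, and the difference was -0.10 ± 0.09 (adjusted p = 0.816). Tiparp, which represses the receptor, differed by 0.10 ± 0.11 (0.02 without D2 mouse 13), with a second probe at -0.03 ± 0.13. Nqo1, a quinone reductase, differed by 0.03 ± 0.14. Over the 15 AhR targets tested of 19, the members lay between -0.139 (Aldh3a1, an aldehyde dehydrogenase, with a second probe at -0.17 ± 0.07, whose unadjusted p was under 0.05) and 0.248 (Lrat, which esterifies retinol, at 0.05 without D0 mouse 2), 0 had an unadjusted p under 0.05 at the probe read for the list, and the median was 0.073. With 1 liver left out the median lay between 0.04 (without D0 mouse 4) and 0.122 (without D2 mouse 13), and the count ran from 0 to 2.

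The p53 targets did not differ detectably either. Cdkn1a had levels of -3.84, -3.30, -3.68, -3.23 and -3.68 in D0 and of -3.78, -3.95, -3.58, -3.79 and -3.82 in D2. The D2 levels lay within or below the range of D0, with a difference of -0.23 ± 0.12 (adjusted p = 0.735). A second Cdkn1a probe was well above background on 0 arrays. Mdm2, which marks p53 for destruction, differed by -0.17 ± 0.09. Of 23 members tested, 0 had an unadjusted p under 0.05, with a median of -0.00129. With 1 liver left out that count ran from 0 to 3. The median then lay between -0.0712 (without D2 mouse 11) and 0.036 (without D0 mouse 2). Among 37 DNA repair genes, 3 had an unadjusted p under 0.05 upwards and 2 downwards, against 2.73 and 4.1% of all probes, with a median of 0.019. The count upwards was 1 without D0 mouse 4 or D2 mouse 13. Atr, a kinase that signals stalled replication, was the nearest to a difference, at 0.39 ± 0.10 (limma, adjusted p = 0.697), and Rad23b, which helps to recognise damaged bases, was at -0.19 ± 0.07.

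Among the drug metabolism genes, Cyp2b10 stood out, and it had the lowest p of all probes with a gene symbol and a level at least 1.5-fold lower. Cyp2b10, a P450 switched on by CAR, had levels of 5.46, 4.29, 2.94, 4.90 and 5.19 in D0 and of 4.21, 4.15, 3.21, 2.69 and 2.88 in D2. Every D2 liver lay below the D0 mean of 4.56, but D0 mouse 3 lay among the low D2 livers. The difference was -1.38 ± 0.32, a 2.61-fold lower level (limma, adjusted p = 0.697), and it was -1.28, -0.71 and -1.96 within slides 1, 2 and 3. The other doses were measured against the same D0 livers and gave -0.99 ± 0.32 at D1 and -0.33 ± 0.32 at D3, so the levels did not follow the dose. Cyp2b10 was the 1 member of 23 tested with an unadjusted p under 0.05, against 4.1% of all probes on the lower side, so that the count of the list was near the background. Cyp3a11, the main PXR-driven P450, differed by -0.38 ± 0.24 (-0.16 without D0 mouse 1). The median of the list was -0.0288. With 1 liver left out it lay between -0.0939 (without D0 mouse 2) and 0.0633 (without D0 mouse 1), and the count ran from 1 to 3. In the lung of the same mice Cyp2b10 had levels of 4.89 to 6.12 in D0 and 5.16 to 6.10 in D2, and the liver difference minus the lung difference was -1.61 ± 0.34 (adjusted p = 0.198). Cyp2g1, a P450 best known from the olfactory lining, had the largest estimate of the higher genes named here, at 1.55 ± 0.42 (adjusted p = 0.697). Its levels were 4.40, 1.1, 2.63, 2.71 and 3.11 in D0 and 4.57, 5.00, 4.06, 3.69 and 4.68 in D2. D0 mouse 1 lay within the D2 range and D0 mouse 2 lay far below all the other livers.

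**Figure D1:**
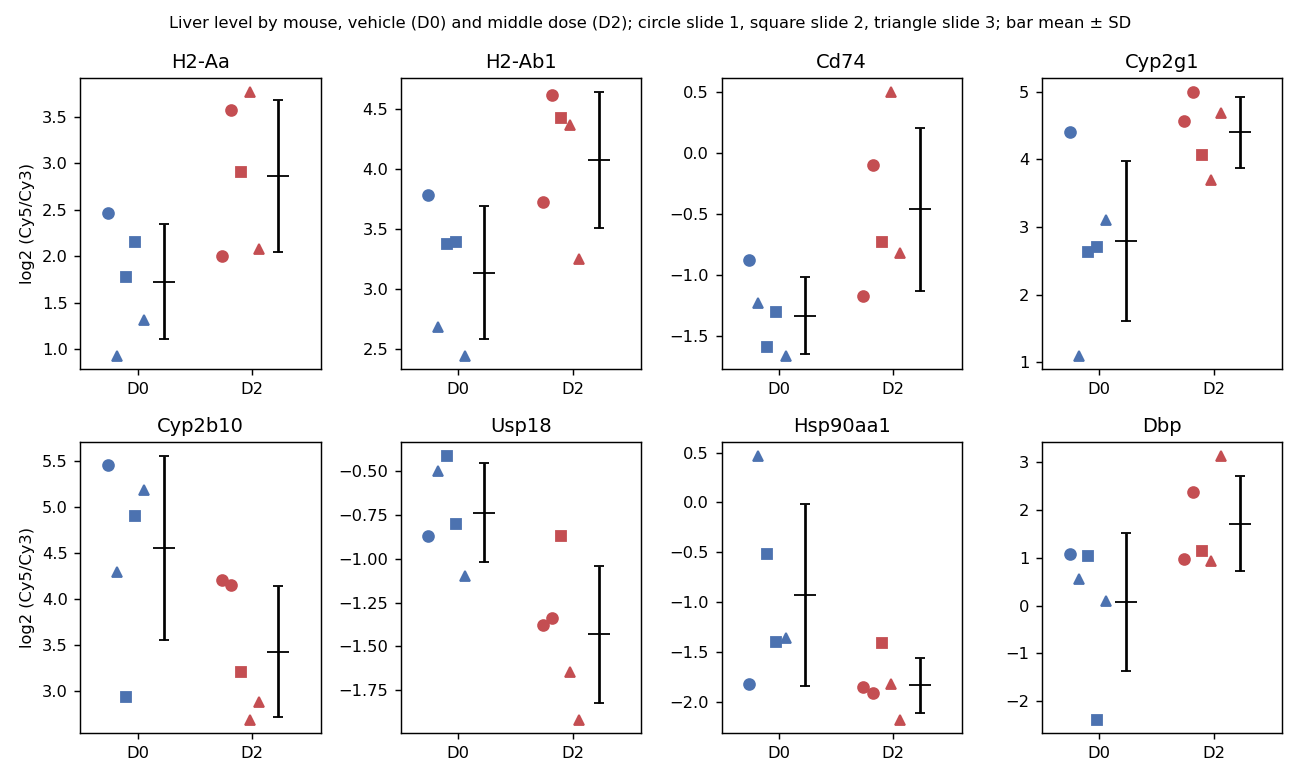
Level of 8 genes in each liver as log2 Cy5/Cy3 on the y axis, with D0 in blue and D2 in red, the slide given by the symbol and the bar showing the mean ± SD over 5 mice. H2-Aa, H2-Ab1, Cd74, Cyp2g1 and Dbp had higher means in D2 and Cyp2b10, Usp18 and Hsp90aa1 lower ones, with livers of both groups overlapping in each panel.

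Genes of antigen presentation through MHC class II made up 4 of the 10 leading genes on the higher side. MHC class II molecules are pairs of an alpha and a beta chain that display peptides to CD4+ T cells, and in liver they are known mainly from macrophages, dendritic cells and B cells. The promoters of H2-Aa, H2-Eb1 and H2-DMb1 are shown as background. Class II genes are known to share a promoter with an inverted CCAAT box (the Y box), and shared regulation was not tested here. The sequences are RefSeq promoters of GRCm38.p6, 300 bases each, most of them before the start, 5′ to 3′ on the gene's strand, with CCAAT or its complement ATTGG in capitals.

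H2-Aa, chr17:34287774-34288073, minus strand: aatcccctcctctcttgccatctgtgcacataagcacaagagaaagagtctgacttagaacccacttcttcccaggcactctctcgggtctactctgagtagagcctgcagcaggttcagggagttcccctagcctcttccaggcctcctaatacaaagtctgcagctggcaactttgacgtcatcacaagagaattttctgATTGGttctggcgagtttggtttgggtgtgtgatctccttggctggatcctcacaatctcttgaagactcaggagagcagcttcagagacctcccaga
H2-Eb1, chr17:34305617-34305916, plus strand: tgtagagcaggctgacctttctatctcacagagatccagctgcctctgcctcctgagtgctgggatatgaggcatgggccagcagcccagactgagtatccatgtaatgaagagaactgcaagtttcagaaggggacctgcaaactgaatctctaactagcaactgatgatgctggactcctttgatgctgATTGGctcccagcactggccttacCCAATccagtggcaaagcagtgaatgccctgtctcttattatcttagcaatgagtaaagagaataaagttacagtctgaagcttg
H2-DMb1, chr17:34152941-34153240, plus strand: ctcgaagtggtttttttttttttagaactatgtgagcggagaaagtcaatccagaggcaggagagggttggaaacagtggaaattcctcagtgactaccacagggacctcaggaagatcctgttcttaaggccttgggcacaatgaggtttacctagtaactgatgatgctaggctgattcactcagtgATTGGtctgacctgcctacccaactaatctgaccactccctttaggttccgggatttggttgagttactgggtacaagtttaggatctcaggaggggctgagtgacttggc

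CCAAT was found on either strand in 5 of the 6 class II genes of the list that matched the promoter table, against 37.4% of all 32851 promoters. The longer form CTGATTGG was found in 3 of the 6, among them H2-Aa and H2-Eb1, against 4.1% of all promoters. A match says only that these letters stand in the window. Here and below a listed gene counted when any of its promoters matched, while the percentages are over single promoters, so the units differ.

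H2-Aa, the alpha chain, had levels of 2.46, 0.93, 1.78, 2.15 and 1.31 in D0 and of 2.00, 3.57, 2.91, 3.77 and 2.08 in D2. D2 mice 12, 13 and 14 lay above every D0 liver, and D2 mice 11 and 15 lay inside the D0 range. The difference was 1.20 ± 0.34, a 2.3-fold higher level (limma, adjusted p = 0.71). H2-Ab1, its partner beta chain, had levels of 3.78, 2.68, 3.37, 3.39 and 2.44 in D0 and of 3.72, 4.61, 4.42, 4.36 and 3.25 in D2, with the same 3 livers on top. Its difference was 0.97 ± 0.24, and a second H2-Ab1 probe gave 0.91 ± 0.24. H2-Eb1, a beta chain of another pair, differed by 0.73 ± 0.20. Cd74, the invariant chain that guards the binding groove until the peptide is loaded, had levels of -0.88, -1.23, -1.59, -1.30 and -1.66 in D0 and of -1.17, -0.10, -0.73, 0.50 and -0.82 in D2, a difference of 0.83 ± 0.24. H2-DMb1, part of the H2-DM editor that exchanges peptides, differed by 0.63 ± 0.21.

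The other tested members had smaller estimates, and differences between members were not tested. H2-DMa, the other H2-DM chain, was at 0.30 ± 0.19, Ctss, the protease that removes the invariant chain, at 0.27 ± 0.27, and H2-Oa, which restrains H2-DM and was well above background in 3 of 5 D0 and 2 of 5 D2 livers, at 0.09 ± 0.09. Without D2 mouse 14 these were 0.14, 0.07 and 0.03. H2-Eb2, H2-DMb2, H2-Ob and Ciita, the class II coactivator, were too near background to be tested. Together 8 of the 12 listed genes were tested, 5 had an unadjusted p under 0.05 on the higher side, against 2.73% of all probes, and the median was 0.679. The list was drawn up after these values had been seen, so its count describes these livers and is not independent of them. Leaving out 1 liver at a time gave a median between 0.499 and 0.81. Within slide 1, with 1 D0 liver, the median was 0.215, within slide 2 it was 0.619 and within slide 3 it was 0.965. At D1 the median against the same D0 livers was 0.156 and at D3 it was 0.453, so D2 had the highest of the 3 estimates. For H2-Aa the difference of D3 minus D2 was -0.39 (limma, adjusted p = 0.925).

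Markers of cells that carry class II were read beside these genes. Of 14 Kupffer cell and macrophage markers, 12 were tested and 11 had a positive fitted difference, with a median of 0.189. However, only Timd4, a phosphatidylserine receptor of resident Kupffer cells, had an unadjusted p under 0.05, at 0.31 ± 0.14. The share of all probes under that threshold on the higher side was 2.73%. Leaving out 1 liver moved that median to between 0.0528 (without D2 mouse 14) and 0.357 (without D0 mouse 1), and it was 0.0612 without D0 mouse 5 and 0.11 without D2 mouse 13. The mean of the 12 ranged from -0.434 to 0.25 in D0 and from -0.176 to 0.65 in D2, and D2 mice 13 and 14 were the highest. Clec4f, the defining lectin of Kupffer cells, differed by 0.18 ± 0.21 (0.06 without D2 mouse 13 and 0.34 without D0 mouse 1). Cd163 was too near background to be tested. Of 10 B cell markers, 5 were tested, Cd79b of the B cell receptor at 0.38 ± 0.16, its groups not overlapping, and Jchain of secreted antibody at -0.27 ± 0.09, while Cd79a and Pax5 were too near background. Of the T and NK cell markers 9 were tested, with Cd3d, a chain of the T cell receptor complex and well above background in 2 of 5 D0 and 5 of 5 D2 livers, at 0.47 ± 0.15 Cd3e, another chain, at -0.219 ± 0.104, and a list median of 0.159 (0.0775 without D0 mouse 5 and 0.0906 without D2 mouse 13). In whole liver, more cells of a type and more RNA per cell cannot be told apart, and the part of these cells in the class II levels was not tested.

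**Figure D2:**
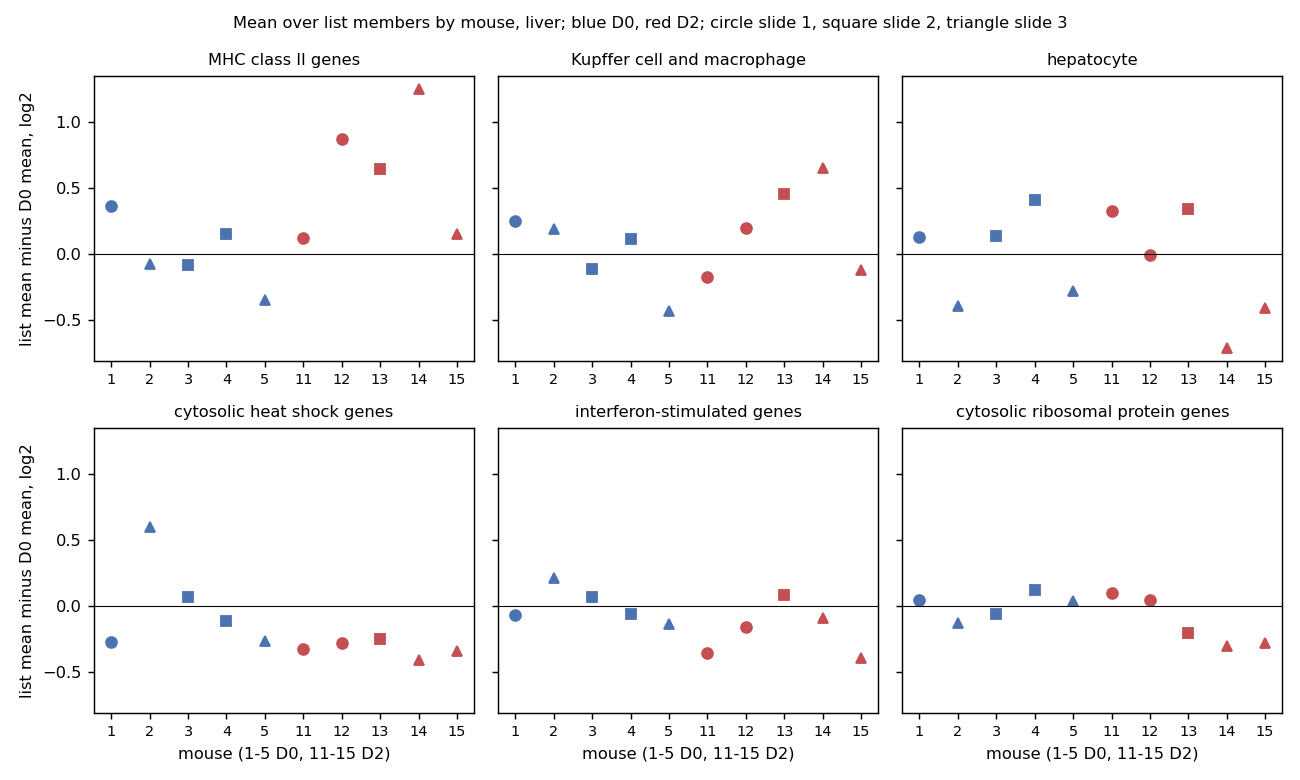
Mean over the tested members of 6 lists in each liver, as the difference from the D0 mean in log2 on the y axis and the mouse on the x axis, with D0 in blue, D2 in red and the slide given by the symbol. The class II mean reached 1.25 in D2 mouse 14, in which the hepatocyte mean was at -0.712, and the heat shock mean reached 0.593 in D0 mouse 2.

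Most interferon-stimulated genes had negative fitted differences, while Cxcl9, a chemokine that interferon gamma induces and that draws T cells, had a positive one. Cxcl9 had levels of 1.80, 0.85, 2.07, 1.88 and 1.51 in D0 and of 1.99, 2.89, 2.84, 2.20 and 1.5 in D2, a difference of 0.75 ± 0.20 (adjusted p = 0.697), and a second probe gave 0.58 ± 0.15. Of 31 listed genes tested, 8 had an unadjusted p under 0.05 on the lower side and 1 on the higher side, against 4.1 and 2.73% of all probes, and the median was -0.12. Rtp4, a chaperone of receptors at the cell surface, had levels of 0.27 to 0.66 in D0 and of -0.38 to 0.24 in D2, so that the groups did not overlap, and its difference was -0.49 ± 0.14. Usp18, which strips the modifier ISG15 from proteins and dampens the receptor, had levels of -0.87, -0.50, -0.41, -0.80 and -1.10 in D0 and of -1.38, -1.34, -0.87, -1.65 and -1.92 in D2, a difference of -0.67 ± 0.21 (adjusted p = 0.71). Oasl1, which restrains Irf7, was at -0.95 ± 0.41 (-0.56 without D2 mouse 15) and Irf7 itself, the factor that sustains the response, at -0.46 ± 0.17. Rsad2, an antiviral enzyme, was at -0.486 ± 0.181 and Ifit1, which binds foreign RNA, at -0.373 ± 0.17. Irf1, a transcription factor that interferon gamma induces, was the 1 member under the threshold on the higher side, at 0.34 ± 0.11.

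The promoter of Isg15, a ubiquitin-like modifier, is shown as the type of sequence these genes are known for, with the core that interferon factors bind, GAAA followed after 2 bases by GAAA, in capitals (RefSeq, GRCm38.p6).

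Isg15, chr4:156200769-156201068, minus strand: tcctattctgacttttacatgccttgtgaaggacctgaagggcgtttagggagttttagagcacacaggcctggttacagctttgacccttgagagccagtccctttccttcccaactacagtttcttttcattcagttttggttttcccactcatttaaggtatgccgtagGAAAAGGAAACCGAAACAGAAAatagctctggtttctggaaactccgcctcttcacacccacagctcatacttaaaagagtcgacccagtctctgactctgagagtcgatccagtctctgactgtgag

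The core was found on either strand, with 3 overlapping matches in Isg15, in 13 of the 24 listed genes that matched the promoter table and in 3.44% of all promoters. Isg15 itself differed by -0.39 ± 0.19, and by -0.18 without D2 mouse 15. The count on the lower side was not steady, since it was 3 without D0 mouse 2, 2 without D2 mouse 15 and 12 without D2 mouse 13. The median was -0.0705 without D0 mouse 2, -0.189 without D0 mouse 1, -0.186 without D2 mouse 14 and -0.238 without D2 mouse 13, and within slide 2 it was 0.0621. At D1 and D3 the median against the same D0 livers was -0.182 and -0.172.

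Heat shock genes had the lowest median of the lists, and that median rested in part on 1 control liver. Most of these genes encode chaperones that fold proteins, and the RNA of many is known to rise within a short time of heat or other stress. The list also held Cirbp, described below. Of 20 tested, 18 had a negative fitted difference, with a median of -0.331. An unadjusted p under 0.05 on the lower side was found for 7, against 4.1% of all probes. Hsp90aa1, the inducible Hsp90, had levels of -1.82, 0.47, -0.52, -1.40 and -1.36 in D0 and of -1.85, -1.91, -1.41, -1.82 and -2.18 in D2, a difference of -0.86 ± 0.37 that was -0.47 without D0 mouse 2. Hspa8, the constitutive Hsp70, was at 0.87 in D0 mouse 2 and between -0.96 and 0.09 in the other 9 livers, and its difference of -0.49 ± 0.26 was -0.18 without that mouse. Hspb1, a small heat shock protein, was at 1.40 in the same mouse against -0.78 to 0.15 in the others, and its difference of -0.65 ± 0.28 was -0.29 without it. Cirbp, which cold induces and heat lowers, was at -2.22 there against -0.90 to 0.02, and its difference of 0.41 ± 0.25 was 0.06 without it. Without D0 mouse 2 the list's median was -0.158 and 3 of 20 had an unadjusted p under 0.05 on the lower side. That count was also 3 without D2 mouse 14 and 4 without D2 mouse 15, and it was 12 without D0 mouse 1 or D0 mouse 5, where the median was -0.419 and -0.436. The list mean lay between -0.276 and 0.593 in D0 and between -0.409 and -0.25 in D2.

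Hspe1 and Fkbp4 had the lowest p of the list, and their levels were not set by D0 mouse 2. Hspe1, the lid of the mitochondrial chaperonin, had levels of 0.25, -0.07, 0.29, 0.77 and 0.32 in D0 and of 0.12, -0.55, -0.30, -0.77 and 0.21 in D2, a difference of -0.53 ± 0.18 (adjusted p = 0.717). A second probe, which was among the 10 leading genes on the lower side, gave -0.84 ± 0.28. Hspd1, the partner of Hspe1 in the same chaperonin, did not go with it, at -0.0388 ± 0.0649. Fkbp4, a co-chaperone of steroid receptors, differed by -0.32 ± 0.11. Their promoters are shown with GAANNTTC, the core of the heat shock element, in capitals (RefSeq, GRCm38.p6).

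Hspe1, chr1:55087898-55088197, plus strand: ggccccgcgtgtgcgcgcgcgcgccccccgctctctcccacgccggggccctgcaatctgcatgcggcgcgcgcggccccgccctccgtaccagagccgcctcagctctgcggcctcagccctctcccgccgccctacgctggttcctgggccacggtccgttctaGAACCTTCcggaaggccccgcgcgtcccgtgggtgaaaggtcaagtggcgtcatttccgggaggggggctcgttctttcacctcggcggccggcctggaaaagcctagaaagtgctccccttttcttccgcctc
Fkbp4, chr6:128438607-128438906, minus strand: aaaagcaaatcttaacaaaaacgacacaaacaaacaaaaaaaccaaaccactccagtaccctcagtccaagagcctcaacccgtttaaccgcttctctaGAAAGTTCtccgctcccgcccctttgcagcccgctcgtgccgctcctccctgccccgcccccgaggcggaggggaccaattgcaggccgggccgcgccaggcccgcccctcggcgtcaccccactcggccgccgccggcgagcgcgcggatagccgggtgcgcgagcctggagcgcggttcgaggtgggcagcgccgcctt

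The core was found on either strand in 9 of the 15 heat shock genes that matched the promoter table and in 7.86% of all promoters. D0 mouse 2 was also high for some genes of the endoplasmic reticulum stress response. The mean of that list lay 0.194 above the D0 mean in D0 mouse 2 and 0.185 above it in D0 mouse 3. Trib3 of that list went the other way, at 0.80 ± 0.46 and at 0.46 without D0 mouse 2. Creld2, a folding factor of that compartment, was at 1.45 in D0 mouse 2 and 0.70 in D0 mouse 3 against -1.88 to -0.04 in the other 8, and its difference of -0.88 ± 0.53 was -0.37 without D0 mouse 2. Hspa5, the main chaperone there, was at 2.10 and 1.76 in these mice against -0.10 to 1.31, and its difference of -0.56 ± 0.36 was -0.27 without D0 mouse 2. Of 27 members, 4 had an unadjusted p under 0.05, all lower, against 4.1% of all probes, with a median of -0.116. Without D0 mouse 2 the median was -0.0569 and 0 members had an unadjusted p under 0.05, and without D2 mouse 15 these were -0.0631 and 0 on the lower side. The count on the lower side reached 8 without D2 mouse 13.

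Clock genes were uneven between livers. The liver clock is a loop in which Arntl (Bmal1) and Clock drive Per, Cry, Nr1d1 and Dbp, and Nr1d1 represses Arntl in turn, so that levels swing over the day. Dbp, an output factor, had levels of 1.09, 0.55, 1.03, -2.39 and 0.09 in D0 and of 0.97, 2.37, 1.14, 0.93 and 3.14 in D2, a difference of 1.46 ± 0.61 (adjusted p = 0.718), and a second probe gave 1.38 ± 0.59. Arntl had levels of -0.11, 0.10, -0.03, 1.43 and 0.50 in D0 and of 0.20, -1.47, 0.04, 0.35 and -1.67 in D2, a difference of -0.77 ± 0.44 that was -0.44 without D2 mouse 15. The 2 livers lowest for Arntl, D2 mice 12 and 15, were the 2 highest for Dbp, and D0 mouse 4, the highest for Arntl, was the lowest for Dbp. Nr1d1 differed by 0.93 ± 0.32, Bhlhe40, a repressor on the same E boxes, by 0.78 ± 0.22, Rora, an activator of Arntl, by -0.38 ± 0.12 with no overlap of the groups, and Nfil3, the opponent of Dbp, by -0.57 ± 0.25. Of 20 clock genes tested, 3 had an unadjusted p under 0.05 on the higher side and 2 on the lower side, against 2.73 and 4.1% of all probes, and the median was 0.231. Without D0 mouse 4 it was 0.15 and without D2 mouse 15 it was 0.114. With 1 liver left out the counts ran from 2 to 5 on the higher side (5 without D0 mouse 3) and from 1 to 3 on the lower side, and both were at their lowest without D0 mouse 4, D2 mouse 12 or D2 mouse 15. The hour of day at which each mouse was killed is not given in the sources used here, and its part was not tested.

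All 39 ribosomal protein genes had a negative fitted difference, 18 with an unadjusted p under 0.05, against 4.1% of all probes. Their median was -0.156 beside -0.0105 for all probes, with a range of -0.239 to -0.0446. With 1 liver left out the count ran from 3 (without D0 mouse 5 or D2 mouse 13) to 24 (without D0 mouse 3 or D2 mouse 11), and it was 7 without D0 mouse 4 or D2 mouse 14 and 9 without D2 mouse 15. It was 0 without the slide block and 0 on the processed signals, and within slide 1 28 of the 39 were higher. Of 29 acute-phase genes 25 were lower, with a median of -0.117 and 3 with an unadjusted p under 0.05 against 4.1% of all probes, namely Cp, the copper carrier ceruloplasmin, at -0.24 ± 0.08, Fga, a fibrinogen chain, at -0.31 ± 0.11, and Crp, C-reactive protein, at -0.265 ± 0.113. Within slide 1 the acute-phase median was 0.0377, and it was -0.0629 without D0 mouse 2, -0.0728 without D2 mouse 14 and between -0.175 and -0.0792 without any 1 of the other mice. The count ran from 2 (without D2 mouse 13) to 6 (without D0 mouse 3) and 8 (without D0 mouse 1). Saa3, an acute-phase amyloid, was at -0.42 in D0 mouse 2 and between -3.14 and -2.33 in the other 9 livers, and its difference of -0.47 ± 0.39 was 0.03 without that mouse. A further list held fatty acid oxidation genes and other targets of the receptor PPAR-alpha. Of 33 tested, 3 had an unadjusted p under 0.05, all higher, against 2.73% of all probes. They were Fitm2 and Fitm1, which package fat into droplets, at 0.42 ± 0.11 and 0.72 ± 0.32, and Acot3, a peroxisomal thioesterase, at 0.52 ± 0.24 (0.23 without D2 mouse 15). Acot3 was well above background in 1 of 5 D0 and 4 of 5 D2 livers, so its D0 level is near the limit of the array. The count of 3 was 1 without D0 mouse 3 or D2 mouse 15. With 1 liver left out the members under that threshold in either direction numbered 1 to 5. Of 22 pericentral genes, 3 had an unadjusted p under 0.05, all higher, against 2.73% of all probes, and the median was 0.0961, between 0.0282 (without D2 mouse 13) and 0.136 (without D0 mouse 1) with 1 liver left out. The count on the higher side was 1 without D0 mouse 5 or D2 mouse 14. The 3 genes were Sp5, a Wnt target, at 0.79 ± 0.23, Lhpp at 0.48 ± 0.18 and Oat, which degrades ornithine, at 0.54 ± 0.25. Glul, the strictest pericentral marker, was at 0.15 ± 0.11. The lists for cholesterol synthesis (25 tested), fat synthesis (27), bile acids (23), oxidative phosphorylation (38) and the cell cycle (27) each had 0 members with an unadjusted p under 0.05. With 1 liver left out the cell cycle count reached 5 (without D2 mouse 13), the bile acid and fat synthesis counts 3 (without D2 mouse 11 or D0 mouse 1, and without D0 mouse 5), and the other counts 1. Of the cell cycle genes 23 had a negative fitted difference, with a median of -0.0822 that was -0.168 without D2 mouse 13 and -0.0311 without D0 mouse 2.

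**Figure D3:**
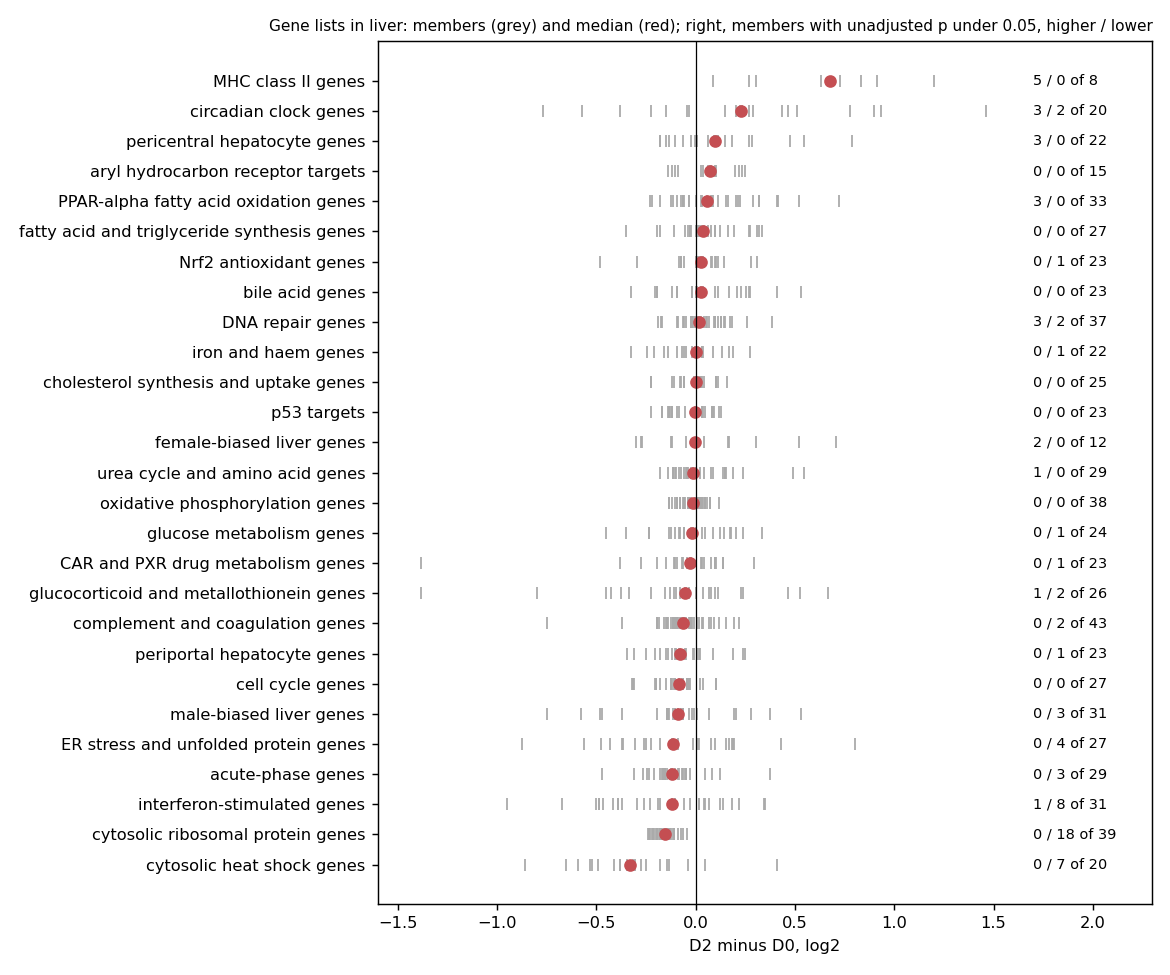
D2 minus D0 in log2 on the x axis for the tested members of each list (grey ticks) and their median (red), with the lists on the y axis and the members with an unadjusted p under 0.05, higher and lower, at the right. The class II list, drawn up after the values were seen, had the highest median at 0.679 and the heat shock list the lowest at -0.331.

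Other leading genes belonged to no list. On the higher side were Gnat1 (the transducin of rods) at 0.94 ± 0.24 and Dct (an enzyme of melanin synthesis) at 0.85 ± 0.25. On the lower side were Rtp3, a liver-expressed relative of Rtp4, at -0.61 ± 0.16, Palld (palladin, an actin scaffold) at -0.68 ± 0.18, Celsr1 (a cadherin of planar cell polarity) at -0.74 ± 0.25, and the hair keratin-associated genes Krtap6-5 at -0.76 ± 0.22 and Krtap20-2 at -0.95 ± 0.29. For Krtap20-2 another 3 probes gave -0.49, -0.33 and -0.04. Palld was at 1.36 in D0 mouse 2 and between -0.36 and 0.78 in the other 9 livers. Rtp3 differed by -0.01, -0.47 and -1.06 within slides 1, 2 and 3. Prkce, a protein kinase C, had the lowest p of all probes at -0.44 ± 0.09 (limma, adjusted p = 0.697), a difference under 1.5-fold, and was named after its value was seen.

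Vps16 and Itpa had the largest estimates of the named genes on the lower side, and these came from 3 of the 5 D2 mice. Vps16 is a core subunit of the complexes that tether vesicles to lysosomes, and Itpa clears inosine triphosphate from the nucleotide pool. Vps16 had levels of -0.95, -0.89, -0.99, -0.20 and -0.73 in D0 and of -3.69, -1.11, -1.0, -3.47 and -3.70 in D2. D2 mice 11, 14 and 15 lay far below all other livers, and D2 mice 12 and 13 lay just below the lowest D0 liver. The difference was -1.82 ± 0.46 (adjusted p = 0.697). Itpa had levels of -0.31, -0.01, 0.00, 0.69 and -0.12 in D0 and of -2.74, -0.28, -0.03, -2.24 and -2.49 in D2, a difference of -1.56 ± 0.44 (adjusted p = 0.71), with the same 3 mice low. In the 15 livers of D0, D1 and D3, Vps16 lay between -0.99 and 0.14 and Itpa between -0.35 and 0.84.

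The same 3 mice stood apart in lung. Vps16 in lung was at -4.35, -4.61 and -5.07 in D2 mice 11, 14 and 15, at -0.98 and -0.96 in D2 mice 12 and 13, and between -1.05 and 0.14 in the 15 lungs of the other doses. Itpa in lung was at -3.08, -2.72 and -3.20 in these mice and at -0.91 and -1.13 in the other D2 lungs. The liver difference minus the lung difference was 0.71 ± 0.75 for Vps16 and -0.01 ± 0.57 for Itpa. In liver the 3 mice lay on slides 1 and 3.

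**Figure D4:**
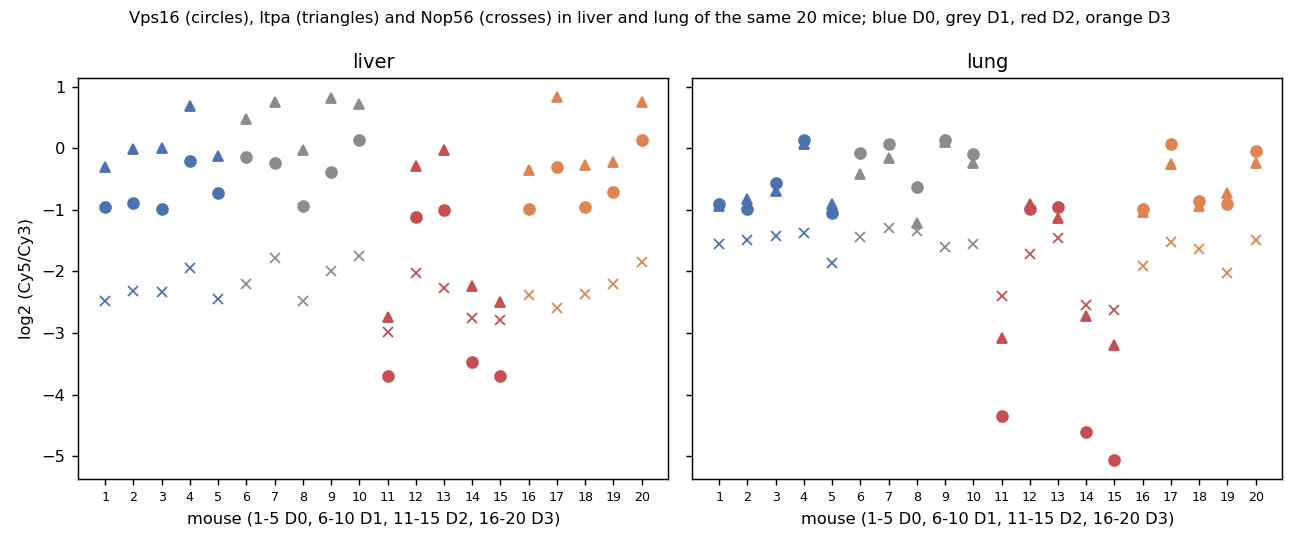
Level of Vps16 (circles), Itpa (triangles) and Nop56 (crosses) as log2 Cy5/Cy3 on the y axis, by mouse on the x axis, in liver (left) and lung (right), with D0 in blue, D1 in grey, D2 in red and D3 in orange. Vps16 and Itpa were low in both tissues of mice 11, 14 and 15 and in no other mouse.

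Vps16 and Itpa lie near each other on chromosome 2, with 8 protein-coding genes between them in GRCm38.p6. These include Ptpra, Mrps26, Oxt and Ubox5, and the tested probes of the genes in between gave differences from -0.29 (Lzts3) to 0.28 (Oxt). From Sirpa to the tenth gene after Itpa, 28 of 35 genes were tested with 40 probes, and the 2 probes with a difference of 1.5-fold or more were those of Vps16 and Itpa. An unadjusted p under 0.05 was found for 7 of the 40, against 6.84% of all probes. Sirpa, at 0.54 ± 0.27, was at 0.21, 0.38 and -0.19 in the livers of D2 mice 11, 14 and 15 and at -0.25 or less in the livers of the other doses, while in lung it was at 1.16, 0.81 and 1.53 in these mice against 0.67 to 1.37. Nop56, a ribosome assembly factor, lies before Vps16 with 6 protein-coding genes between them. Nop56 had levels of -2.98, -2.76 and -2.78 in D2 mice 11, 14 and 15 against -2.60 to -1.75 in the livers of the other doses, and in lung -2.40, -2.54 and -2.62 against -2.03 to -1.29. A second Nop56 probe was at -2.41, -2.38 and -2.36 in these livers, inside the range of the other doses, -2.81 to -1.99. Atrn, after Itpa, gave 0.37 ± 0.10 with 1 probe and 0.13 ± 0.11 with the other.

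A region of the same chromosome, named on the array by its coordinates alone, held the lowest p of the D2 to D1 comparison. The probe is given for the reverse strand of chr2:130697320-130729670 (mm9) on the array, and its levels were 0.68, 0.72, 1.19, 1.48 and 0.95 in D0 and -0.25, 0.49, 0.64, -0.39 and -0.46 in D2, with no overlap of the groups and mice 11, 14 and 15 again the lowest. The difference was -0.98 ± 0.22 against D0 (adjusted p = 0.697) and -1.35 against D1 (adjusted p = 0.135). Another 2 tested probes of the same region gave -0.19 ± 0.13 and -0.09 ± 0.17.

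**Figure D5:**
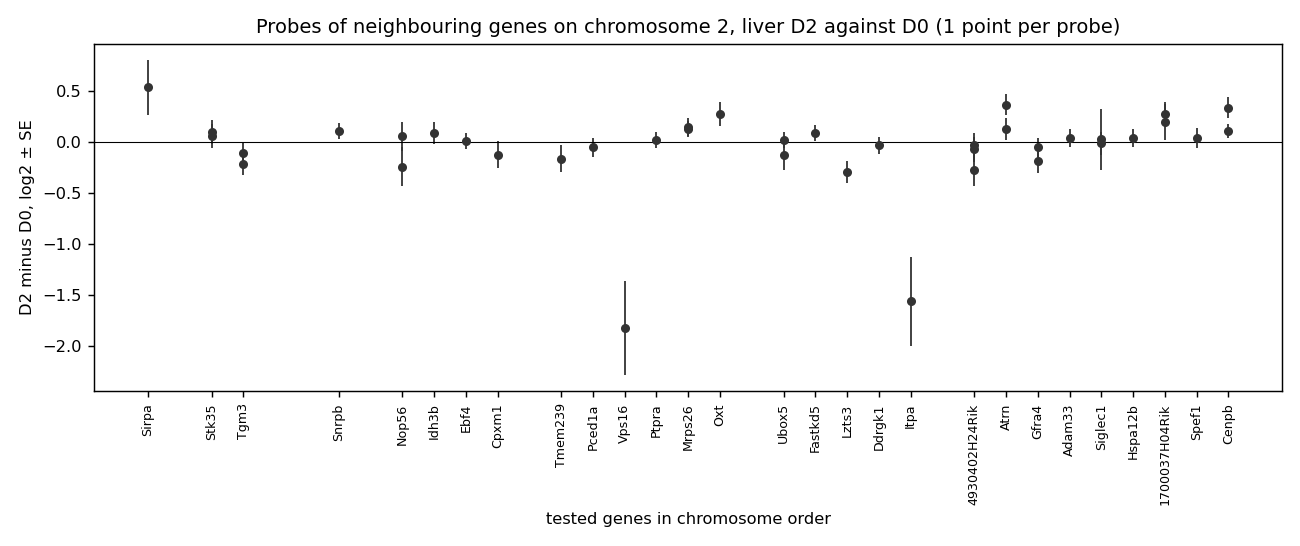
D2 minus D0 in liver, log2 ± SE, for each tested probe of neighbouring genes on chromosome 2, in chromosome order on the x axis and not to scale. Vps16 at -1.82 and Itpa at -1.56 stood apart from probes of the genes around them.

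The middle dose was also set against the doses on either side, and both comparisons use the same D2 arrays. D3 against D2 gave 0 called probes of 25907 (0%, lowest adjusted p = 0.879 with limma), with an unadjusted p under 0.05 for 1426. D2 against D1 gave 0 called probes (0%, lowest adjusted p = 0.135 with limma), with 1705 under the unadjusted threshold, and Cxcl9, Vps16 and Itpa differed by 1.06, -2.22 and -2.01 (adjusted p = 0.354, 0.435 and 0.435).

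The difference in liver was tested against the difference in lung of the same mice. Of 25907 probes, 1 was called (0.00386%). It was Slc13a4, a sulphate transporter, with a liver difference minus lung difference of 1.17 ± 0.20 (adjusted p = 0.0485). Its liver levels were 0.60 ± 0.14 (SD, n = 5) in D0 and 1.03 ± 0.31 (SD, n = 5) in D2, ranging from 0.46 to 0.79 and from 0.64 to 1.45, and in lung 2.91 ± 0.61 and 2.28 ± 0.52, so the means moved in opposite directions. The liver difference by itself was 0.54 ± 0.14 (adjusted p = 0.697). The call was lost without the random block for mouse, when 0 probes were called and the lowest adjusted p was 0.103, and without the slide block.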

How the data were processed

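RNA of 1 liver per mouse was hybridised with Cy5 against Cy3 reference RNA on dual-colour 60-mer arrays. The deposited scanner files hold signal intensity per spot (per the file headers, from Feature Extraction version 10.7.3.1), and the deposited matrix holds log2 ratios by the authors (LOWESS). From 62976 spots, 3671 controls were left out, spots flagged as outliers (0.406% of liver values) were set to missing, median signals without background subtraction were loess-normalised within arrays, and spots of a probe were averaged (55681 probes). Ratios correlated with the deposited ones at 0.996 to 0.997. A probe entered the test when 5 or more of the 20 liver arrays had its Cy5 signal well above background (25907 probes), with limma 3.58.1 in R 4.3.3, on all 20 liver arrays with slide as a fixed block, two-sided, with Benjamini-Hochberg adjustment over all probes. The methods name MAANOVA, which was not run. Lung enters with mouse as a random block. Symbols came from RefSeq accessions (47.4% of probes). Brightness was compared by a two-sided exact permutation test. The script was tested on simulated data.

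Members and lists were chosen with earlier results of these data known. Genes named were the 10 per direction with the lowest p among 1.5-fold differences, Cyp1a1, Cyp1a2, Cyp1b1, Cdkn1a and the 2 lowest-p members of each list with any others below the 0.01 level, unadjusted; other names were added after their values were seen. Some genes under this rule are not reported here. List members are read at their brightest probe. Forestomach arrays were not used. Alternatives were other normalisations, filters, blocks and leaving out each mouse. The number of arrays limits precision.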

Additional observations from a re-analysis of the deposited data

Results flagged for a closer look

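Of 296 groups of 5 mice examined for a value far from the others (Dixon's test at 0.71), 11 held one, and chance alone marks about 1 in 20. Among single genes, in D0 these were H2-DMb1 in mouse 5 (-0.57, the next liver at -0.21), Dbp in mouse 4 (-2.39, next 0.09), Sirpa, a receptor that restrains phagocytes, in mouse 4 (-1.26, next -0.64), Hspb1 in mouse 2 (1.40, next 0.06), Saa3 in mouse 2 (-0.42, next -2.43) and Per1 in mouse 1 (-0.64, next -1.70). In D2 they were Nr1d1 in mouse 11 (2.66, next 1.91) and Mdm2 in mouse 11 (-1.0, next -1.24). Among list means, as differences from the D0 mean, they were the glucose metabolism genes in D0 mouse 2 (-0.571, next 0.0586), the sinusoidal endothelial markers in D2 mouse 15 (-0.103, next 0.147) and the neutrophil and monocyte markers in D2 mouse 14 (0.424, next 0.0675).

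Slc13a4 differed between tissues, with a liver difference minus lung difference of 1.17 ± 0.20 by the limma interaction term (adjusted p = 0.0485). It was 1 call of 25907 probes and was lost without either block.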

How the results depend on the processing

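No paired analysis was possible because D0 mice (1 to 5) and D2 mice (11 to 15) share no replicate numbers. The count of called probes was 0 for D2 against D0, D3 against D2 and D2 against D1 in every setting run, with leave-one-mouse-out counts from 0 to 0. For D2 against D0 the number with an unadjusted p under 0.05 was 1071 without the slide block, and 1182 to 2711 with 1 mouse left out (2711 without D0 mouse 1), where the lowest adjusted p lay between 0.0652 and 0.96. The liver minus lung count was 1 with both blocks, 0 without the mouse block and 0 without the slide block. The Cy5 brightness difference was 0.662 percentage points and -0.0866 in Cy3. Among values of named genes outside the within-slide comparisons, 10 changed sign: Saa3 at 0.03 without D0 replicate 2 (range over mice left out -0.86 to 0.03), Clec4f at -0.01 on processed signals, Alb at 0.01 on processed signals, 0.04 on deposited ratios and -0.13 to 0.02 with a mouse left out, and Nqo1 at -0.01 with only the 10 arrays and -0.09 to 0.12 with a mouse left out. Within slides, 73 of 318 values of named genes moved by more than 1 SD and 41 had the opposite sign, among them Saa3 at 0.60 and Trib3 at -0.59 in slide 1 and Moxd1 at 0.32 and Isg15 at 0.20 in slide 2. The cause was not tested.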
